A study of Mus musculus with 9 samples.

Results

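The genes described here are 38 genes of redox defence, namely the regulators and targets of the transcription factor NRF2, the enzymes that make and use glutathione, the thioredoxin and peroxiredoxin system, the selenoproteins, the enzymes that remove superoxide and hydrogen peroxide, and the enzymes that supply NADPH. They were picked by symbol from the 46517 genes in the deposited tables, and all 38 were found. The tables come from RNA sequencing of mouse duodenal organoids, which are 3-dimensional cultures grown from intestinal crypts in a basement membrane gel, and 3 cultures were sequenced in each of 3 groups. Ad-GFP organoids received an adenovirus that carries green fluorescent protein and served as control, Ad-hHIF2 organoids received human HIF2α and Ad-hHIF1 organoids received human HIF1α. Both transgenes encode stabilised forms of the HIFs, which escape the VHL ubiquitin ligase because the prolines it recognises were mutated. The question put to these samples was which genes each hypoxia-inducible factor (HIF) changes in intestinal stem cell cultures.

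All 9 cultures came from wild-type C57BL/6J mice, and the age of the mice was not given in the sources used here. All were dissociated to single cells in the presence of N-acetylcysteine, which is itself an antioxidant and a cysteine source, were then transduced, and grew for about 3 days in low oxygen in L-WRN conditioned medium with Y27632, SB431542 and nicotinamide before RNA was taken. Every group received an adenoviral vector, and no untransduced culture is among the samples compared. The Ad-GFP vector came from a vector core, while the HIF vectors had been produced earlier. Vector source and transgene therefore differ together in the comparisons with Ad-GFP and cannot be told apart. The promoter that drives the HIF transgenes was not given in the sources used here. The samples carry the replicate numbers 1, 3 and 4, and the labels do not tie a culture to an animal, so that p-values measure the spread between these cultures. These are bulk samples, in which fewer cells of a type and less RNA per cell cannot be told apart.

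NRF2, encoded by Nfe2l2, is held in the cytoplasm and sent for degradation by KEAP1 until oxidants or electrophiles modify KEAP1. It then pairs with a small MAF protein on antioxidant response elements, where BACH1 competes for the same sites, and raises genes of glutathione synthesis, quinone reduction and NADPH supply. Glutathione peroxidases and peroxiredoxins reduce peroxides at the expense of glutathione and thioredoxin, and both of these are recharged with NADPH. Several of these enzymes carry selenocysteine, so that they also depend on selenium supply.

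Libraries held 21722618 to 51119041 expected counts. Human transgene reads and mouse reads were not separated in these tables. Epas1 (HIF2α) was at 604 to 757 CPM (counts scaled to library size) in Ad-hHIF2 and 1.47 to 2.20 in Ad-GFP, and Hif1a at 299 to 319 CPM in Ad-hHIF1 and 197 to 251 in Ad-GFP, a 1.41-fold difference that did not pass (adjusted p = 0.486 in edgeR's test). Of 10 epithelial markers 9 were above 1 CPM in some sample, and their summed level was 3251 to 3569.9 CPM in Ad-GFP, 3432 to 3758 in Ad-hHIF2 and 3336 to 3758 in Ad-hHIF1. Most of that sum was keratin and Cdh1. Of the others, Hnf4a was at 21.2 to 35.4 CPM and Cdx2 at 6.55 to 8.99. Vil1 was at 3.26 to 4.93 CPM, Epcam at 1.42 to 3.80, Cldn7 at 1.31 to 2.32 and Cdx1 at 0 in every sample. The summed markers of mesenchyme, of which 5 of 10 passed 1 CPM, were at 13.3 to 19.7 CPM in Ad-GFP, 10.4 to 13.4 in Ad-hHIF2 and 10.3 to 21.9 in Ad-hHIF1, and those of endothelium (1 of 5) reached 3.14. Those of immune cells (4 of 8) were at 13.1 to 18.0, 15.7 to 20.9 and 10.6 to 13.9 CPM in the same order, with Cd3e and Cd79a at 0 to 0.306 and 0 to 0.137. Between Ad-hHIF2 and Ad-GFP the markers Cdh1 (log2 0.53) and Csf1r (1.46, from a mean of 1.17 to 3.37 CPM) were higher, and Epcam (-0.81), Hnf4a (-0.50) and Ptprc (-3.92, from 0.768 to 0.0425 CPM) lower. Between Ad-hHIF2 and Ad-hHIF1, Csf1r (log2 3.11), Cd68 (0.60) and Cdh1 (0.45) were higher and Ptprc (-2.64), Hnf4a (-0.41) and Krt19 (-0.37) lower. The part of these cells in the results below was not tested. Ad-GFP replicate 4 was the shallowest library, and in Ad-hHIF1 replicate 3 15.96% of counts fell on Gm10800 and Gm26870, a pair of satellite-like genes.

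Promoters are shown for the 4 members with the largest changes in Ad-hHIF2 organoids for which RefSeq (GRCm38.p6) lists one, because they show which HIF and NRF2 letters lie next to the genes that moved most. Each runs 5′ to 3′ from 250 bases before to 50 after an annotated start. Capitals mark matches, on either strand, to the hypoxia response cores ACGTG and GCGTG and to the antioxidant response cores TGACNNNGC and TGAGNNNGC, the last of which was added after the sequences had been seen. They are Selenbp1 at chr3:94932833-94933132, Sepp1 (Selenop in RefSeq, the first of its 3 starts) at chr15:3270517-3270816, Txnip at chr3:96557707-96558006 and Srxn1 at chr2:152105274-152105573, all on the plus strand.
Selenbp1: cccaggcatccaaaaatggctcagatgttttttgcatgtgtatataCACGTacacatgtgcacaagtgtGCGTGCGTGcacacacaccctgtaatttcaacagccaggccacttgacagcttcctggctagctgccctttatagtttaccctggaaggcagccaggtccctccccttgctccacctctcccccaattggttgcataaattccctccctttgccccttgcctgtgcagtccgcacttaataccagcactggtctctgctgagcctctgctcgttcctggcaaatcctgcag
Sepp1: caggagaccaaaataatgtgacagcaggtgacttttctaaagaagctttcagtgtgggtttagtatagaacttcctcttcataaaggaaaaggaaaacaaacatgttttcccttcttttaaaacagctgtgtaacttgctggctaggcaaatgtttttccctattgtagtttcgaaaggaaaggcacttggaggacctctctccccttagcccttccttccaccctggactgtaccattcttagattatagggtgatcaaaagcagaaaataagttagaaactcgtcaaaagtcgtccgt
Txnip: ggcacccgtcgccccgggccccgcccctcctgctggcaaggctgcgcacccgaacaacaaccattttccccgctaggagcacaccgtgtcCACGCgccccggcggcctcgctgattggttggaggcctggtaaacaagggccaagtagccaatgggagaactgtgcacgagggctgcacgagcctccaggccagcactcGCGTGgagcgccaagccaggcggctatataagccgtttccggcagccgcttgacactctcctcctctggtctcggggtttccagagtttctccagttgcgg
Srxn1: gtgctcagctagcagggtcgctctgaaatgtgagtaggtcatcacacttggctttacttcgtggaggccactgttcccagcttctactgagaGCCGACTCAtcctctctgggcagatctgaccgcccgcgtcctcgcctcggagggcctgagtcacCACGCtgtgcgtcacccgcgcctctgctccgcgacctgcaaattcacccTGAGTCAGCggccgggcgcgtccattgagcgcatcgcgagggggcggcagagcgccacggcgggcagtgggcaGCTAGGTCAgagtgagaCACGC

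In the Selenbp1 promoter 1 ACGTG and 2 overlapping GCGTG were found, in that of Txnip 2 GCGTG, and in that of Srxn1 2 GCGTG, 1 TGACNNNGC and 2 TGAGNNNGC. None of these letters was found in the 3 Sepp1 windows. RefSeq held a window for 35 of the 38 members (48 windows), and none for Gclc, Gsr and Prdx6. ACGTG lay in a window of 11 of the 35 members (31.4%, against 21.8% of 27025 genes), GCGTG in 21 (60.0% against 35.2%), TGACNNNGC in 12 (34.3% against 14.0%) and TGAGNNNGC in 4 (11.4% against 19.8%). TGACNNNGC was in the windows of Gclm, Txnrd1, Srxn1 and Pgd among the 9 members with a window that were lower in Ad-hHIF2 than in Ad-GFP organoids, and in that of Me1 among the 8 that were higher. ACGTG was in 2 of those 9, Gclm and Gpx1, and in 4 of the 8, Keap1, Selenbp1, Gpx8 and Me1, while GCGTG was in 8 of the 9 and in 4 of the 8. Of the 15 members with a window that did not pass, 6 held TGACNNNGC, 4 ACGTG and 9 GCGTG. A match is a description of the sequence and shows no binding.

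The levels of the 38 members spanned a wide range in the control organoids. Levels are compared between genes as CPM per kilobase of effective gene length, and by this measure Gpx4, which reduces lipid peroxides, was highest in Ad-GFP organoids at 589 ± 21.0 (SD, n = 3). It was followed by Sqstm1, the autophagy receptor p62 that binds KEAP1, at 497 ± 6.10 and by the peroxiredoxin Prdx5 at 191 ± 6.92. Sepp1, Gpx1 and Sod1, at 176 ± 5.99, 172 ± 5.30 and 169 ± 13.8, did not differ beyond their spread. The master regulator Nfe2l2 stood in the middle of the order at 25.2 ± 2.25, its inhibitor Keap1 was lower at 5.37 ± 0.432, and the catalytic subunit Gclc at 7.69 ± 0.510 was below its partner Gclm at 20.9 ± 2.90.

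**Figure D1:**
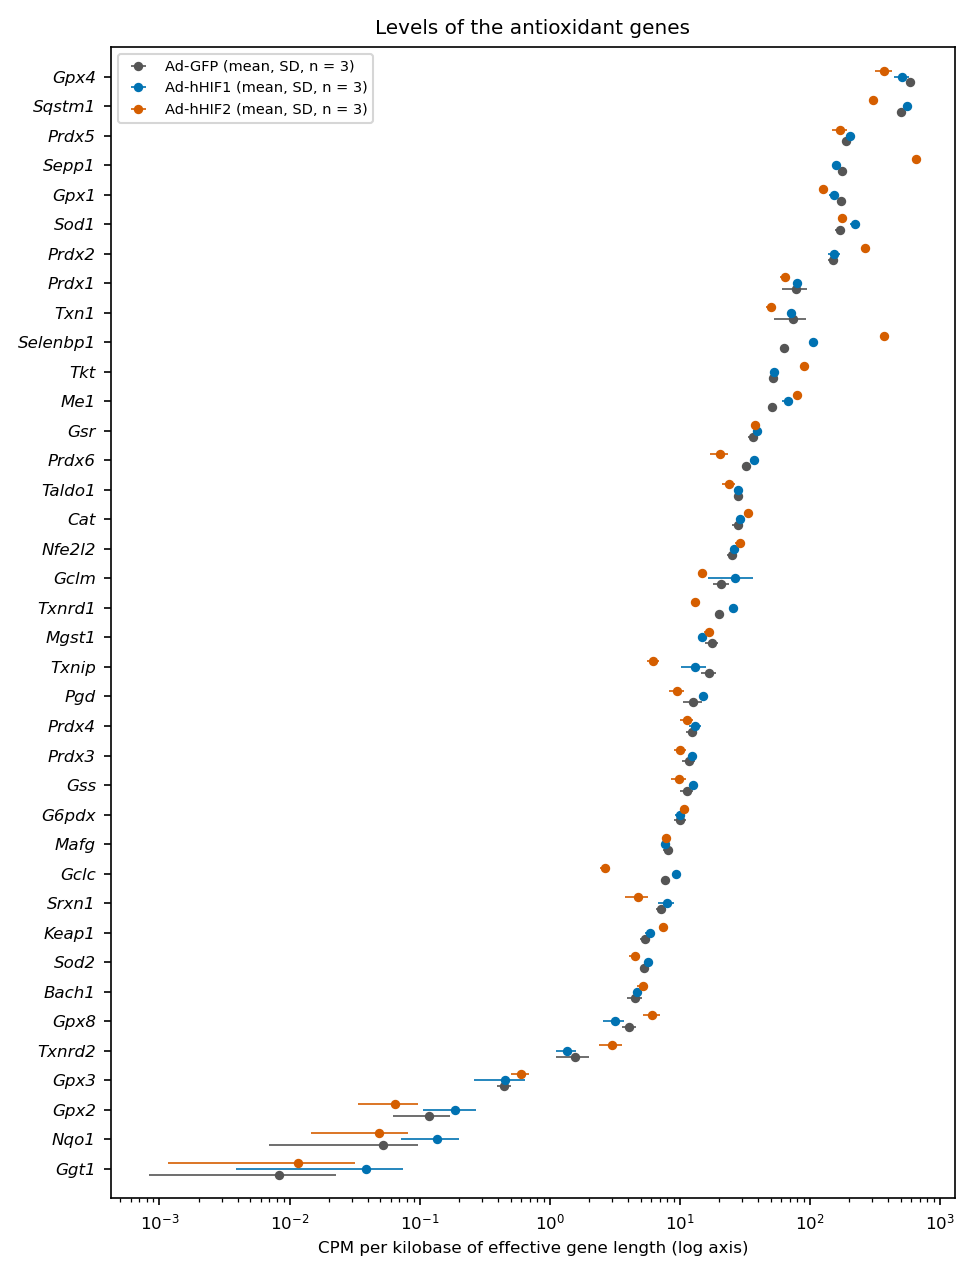
Levels of the 38 members as CPM per kilobase of effective gene length on a log axis, mean and SD of 3 samples per group, ordered by Ad-GFP, with the lower arm of a bar shortened where it would reach 0. Gpx4 is highest in Ad-GFP at 589 and Ggt1 lowest at 0.00831, and Sepp1 and Selenbp1 lie to the right in Ad-hHIF2.

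At the other end of the order, 3 members had too few counts to be tested. Nqo1, the quinone reductase that is often used as the readout of NRF2, had 0 to 9 counts per sample and 37 in all 9 samples together. Gpx2, the glutathione peroxidase of the gut epithelium, had 1 to 9 counts and 36 in all, and its pseudogene Gpx2-ps1 was at no more than 0.132 CPM. Ggt1, which splits extracellular glutathione, had at most 1 count in any sample, and a count of 0 allows up to 3. The relative Nqo2 was measured at 12.3 to 16.0 CPM, so that among these quinone reductases only Nqo1 was near 0. The remaining 35 members were tested in each comparison.

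With HIF2 the redox genes changed in both directions. Among the 35 tested members, Ad-hHIF2 organoids had 8 above the Ad-GFP level, 11 below it and 16 that did not pass the quasi-likelihood test of edgeR at an adjusted p of 0.05. These are 22.9% and 31.4% of the members, where 15.9% of all 14987 genes tested were higher and 13.6% lower. All genes were not matched to the members by level, and the members were chosen with earlier results of these data known. Past a change of 2-fold were Selenbp1 and Sepp1 among the higher (2.90% of all genes) and Gclc, Txnip and Srxn1 among the lower (3.83%). With library totals Txnip and Srxn1 were under 2-fold, and Prdx2 (log2 1.10) and Tkt (1.05) past it. The median log2 fold change was -0.12 over the members and -0.01 over all genes, and the median absolute change 0.45 and 0.32.

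The call of the lower members depended on the scale. With library totals in place of TMM factors, which moved the median of all genes up to 0.24, 11 members were higher and 3 lower, the 3 being Gclc, Txnip and Srxn1. On the TPM scales, where that median was 0.12 (pseudocount 1) or 0.30 (pseudocount 0.1), none of the 11 lower members passed and 6 members were higher. Keap1, Gpx8 and Cat, higher on the TMM scale, did not pass there, while Txnrd2, which had not passed, did. The log2 fold changes of the 35 members moved up by a median of 0.26 with library totals (0.24 to 0.28) and by 0.39 and 0.43 on the TPM scales (-0.58 to 1.12 and -0.28 to 0.93). Genes with an effective length below 100 bases held 67.5% to 73.6% of TPM per sample and 10.4% to 19.8% of counts. The values below are relative to the TMM scale unless stated. Shares of all genes called are those of the TMM scale throughout, so the counts on the other scales do not show whether the members differ from the rest.

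**Figure D2:**
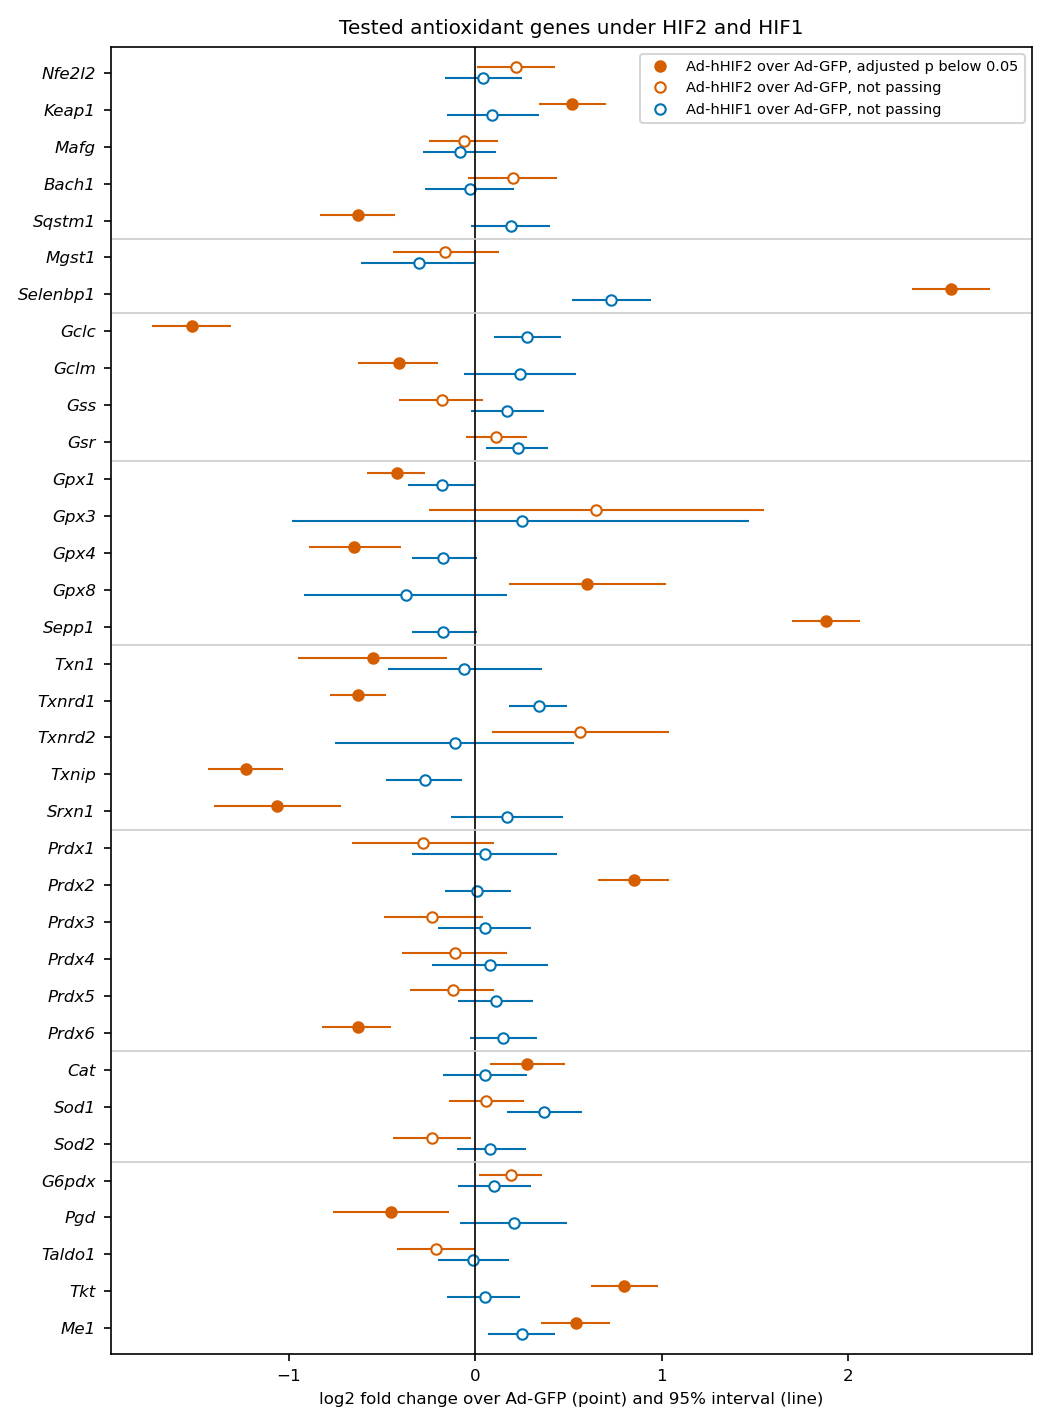
Log2 fold change over Ad-GFP with its 95% interval for the 35 tested members, grouped by role, in Ad-hHIF2 (orange, filled where the adjusted p was below 0.05) and Ad-hHIF1 (blue, none of which passed). Selenbp1 at 2.55 and Gclc at -1.52 are the ends of the Ad-hHIF2 range.

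Among the regulators, the transcript of NRF2 itself did not pass. Nfe2l2 was at 53.4, 56.9 and 63.5 CPM in Ad-GFP replicates 1, 3 and 4, at 73.8, 61.9 and 66.2 in Ad-hHIF2 and at 55.6, 61.3 and 61.8 in Ad-hHIF1. The Ad-hHIF2 and Ad-GFP groups overlapped, and its log2 fold change in Ad-hHIF2 over Ad-GFP was 0.22 (95% interval 0.01 to 0.43, adjusted p = 0.109). Without Ad-GFP replicate 4 it was 0.30 with an adjusted p of 0.0386, and with library totals 0.49 and 0.0375.

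Keap1, the inhibitor of NRF2, was at 16.9, 15.3 and 15.3 CPM in Ad-GFP and 21.9, 23.2 and 22.7 in Ad-hHIF2. All Ad-hHIF2 samples were higher, by 1.43-fold (log2 0.52, standard error 0.0796, adjusted p = 0.00179). In Ad-hHIF1 Keap1 was at 15.8, 15.9 and 18.9 CPM, across the Ad-GFP range. Its counts were fractional in all 9 samples, so that part of its reads was shared with other features, and on the TPM scales it did not pass, at log2 0.45 and 0.83 (adjusted p = 0.217 and 0.154).

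Sqstm1, which frees NRF2 by drawing KEAP1 into autophagy and is itself an NRF2 target, went the other way. Its level was 515, 522 and 453 CPM in Ad-GFP and 333, 331 and 299.7 in Ad-hHIF2, against 559, 537 and 602 in Ad-hHIF1. Every Ad-hHIF2 sample was below every other sample, and Sqstm1 fell by 0.63 on the log2 scale (standard error 0.0883, adjusted p = 0.00116). Bach1, the repressor, gave 23.2, 24.0 and 29.5 CPM in Ad-GFP and 28.7, 31.5 and 27.3 in Ad-hHIF2, which overlap (log2 0.20, adjusted p = 0.193), with 25.6, 24.4 and 25.2 in Ad-hHIF1, although without Ad-GFP replicate 4 it passed in Ad-hHIF2 (0.32, adjusted p = 0.0215). Mafg, a small MAF partner of NRF2, had a log2 fold change of -0.06 (adjusted p = 0.608).

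Transcripts of both subunits of the first enzyme of glutathione synthesis were lower. Gclc (chr9:77754535-77794485, GRCm38), the catalytic subunit of glutamate-cysteine ligase that sets the rate of glutathione synthesis, was at 23.5, 25.5 and 26.8 CPM in Ad-GFP. It was at 9.57, 8.47 and 8.24 CPM in Ad-hHIF2 and at 30.2, 31.4 and 30.2 in Ad-hHIF1. The 3 groups did not overlap, with Ad-hHIF2 lowest and Ad-hHIF1 highest, and Gclc was 2.87-fold lower in Ad-hHIF2 than in Ad-GFP (log2 -1.52, standard error 0.0940, adjusted p = 1.29e-05). On the TPM scales its log2 fold change was -0.40 and -0.91, with adjusted p of 0.203 and 0.108.

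Gclm, the modifier subunit, was at 18.5, 21.5 and 21.5 CPM in Ad-GFP, 15.2, 16.5 and 14.3 in Ad-hHIF2 and 21.7, 28.9 and 22.1 in Ad-hHIF1. The Ad-hHIF2 samples were the lowest (log2 -0.41, standard error 0.0963, adjusted p = 0.0127). This call was lost without Ad-GFP replicate 3 (adjusted p = 0.0526), Ad-hHIF2 replicate 1 (0.0555) or Ad-hHIF2 replicate 4 (0.0541). Gss, which adds glycine as the second step, and Gsr, which reduces oxidised glutathione, did not pass, at log2 -0.18 (adjusted p = 0.195) and 0.11 (adjusted p = 0.284).

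The glutathione peroxidases divided by member. Gpx4 was at 275, 272 and 254 CPM in Ad-GFP, 146, 189 and 175 in Ad-hHIF2 and 238, 229 and 246 in Ad-hHIF1. All Ad-hHIF2 samples were lower, by 1.57-fold (log2 -0.65, standard error 0.107, adjusted p = 0.00257). Gpx1, the abundant cytosolic enzyme, fell by 0.42 on the log2 scale (adjusted p = 0.00224), from 97.1, 98.9 and 99.5 CPM in Ad-GFP to 77.1, 71.6 and 71.3 in Ad-hHIF2, although on the TPM scales its sign turned (0.01 and 0.00).

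Gpx8, a glutathione peroxidase of the endoplasmic reticulum with cysteine in place of selenocysteine, was low and moved up. It was at 3.85, 3.07 and 3.80 CPM in Ad-GFP and 4.55, 5.45 and 6.21 in Ad-hHIF2, without overlap (log2 0.60, standard error 0.183, adjusted p = 0.0377). In Ad-hHIF1 it was at 2.70, 2.23 and 3.30 CPM. The call against Ad-GFP was lost without Ad-GFP replicate 1 (adjusted p = 0.0606), Ad-GFP replicate 3 (0.114), Ad-hHIF2 replicate 3 (0.101) or Ad-hHIF2 replicate 4 (0.119). The secreted Gpx3 was at 0.388 to 1.03 CPM over these groups and did not pass (log2 0.65, 95% interval -0.25 to 1.55, adjusted p = 0.251).

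Sepp1 (chr15:3268547-3280508, named Selenop in newer annotations), the secreted selenoprotein P that carries selenium between tissues, showed the second largest rise. It was at 309, 323 and 310.1 CPM in Ad-GFP and 286, 267 and 285 in Ad-hHIF1, and at 1188, 1119.7 and 1152 in Ad-hHIF2. The Ad-hHIF2 samples lay far above all others, by 3.68-fold over Ad-GFP (log2 1.88, standard error 0.0777, adjusted p = 1.26e-06), and the 10 alternatives gave adjusted p up to 1.40e-05. Sepp1 thereby exceeded Gpx4 per kilobase in Ad-hHIF2 organoids, at 655 ± 9.36 against 370.4 ± 56.0 CPM per kilobase.

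Selenbp1 (chr3:94933056-94944758), a selenium-binding protein with methanethiol oxidase activity that is abundant in differentiated intestinal epithelium, rose most of all members. Its level was 106, 99.2 and 91.4 CPM in Ad-GFP, 167, 151 and 175 in Ad-hHIF1 and 553, 599 and 581 in Ad-hHIF2. The 3 groups did not overlap. Ad-hHIF2 was 5.86-fold above Ad-GFP (log2 2.55, standard error 0.0911, adjusted p = 5.47e-07). Selenbp1 counts were whole in 1 of 9 samples, so that some reads were shared with other features, and its close paralog Selenbp2 was at 0 to 1.76 CPM throughout. Mgst1, a membrane-bound glutathione transferase, did not pass (log2 -0.16, adjusted p = 0.379).

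Of the 7 members that carry selenocysteine, 1 was higher (Sepp1), 3 were lower (Gpx1, Gpx4 and Txnrd1), 2 did not pass (Gpx3 and Txnrd2) and Gpx2 was not tested. Over all genes 15.9% were higher and 13.6% lower. With library totals none of the 3 lower calls passed (adjusted p = 0.570 for Gpx1, 0.0999 for Gpx4 and 0.128 for Txnrd1), nor did any on the TPM scales, where the sign of Gpx1 turned.

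In the thioredoxin system 4 of 5 members were lower and none higher, where 13.6% and 15.9% of all genes were. With library totals 2 of them, Txnip and Srxn1, were lower and Txnrd2 higher, and on both TPM scales none was lower and Txnrd2 was higher. Txnrd1, the cytosolic thioredoxin reductase, was at 67.1, 65.4 and 65.5 CPM in Ad-GFP, 44.1, 40.0 and 43.4 in Ad-hHIF2 and 82.5, 87.3 and 80.7 in Ad-hHIF1. The groups were separate, and Txnrd1 fell by 0.63 in Ad-hHIF2 on the log2 scale (standard error 0.0676, adjusted p = 0.000266). The mitochondrial Txnrd2, at 1.90 to 2.43 CPM in Ad-GFP and 3.01 to 3.77 in Ad-hHIF2, did not pass on the TMM scale (log2 0.56, adjusted p = 0.0724), while it did with library totals (0.84, adjusted p = 0.0263) and on the TPM scales (adjusted p = 0.0319 and 0.0276).

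Txnip (chr3:96557957-96561883), which binds and blocks thioredoxin and is known as a glucose-responsive gene, was at 30.2, 27.5 and 26.7 CPM in Ad-GFP, 12.1, 12.7 and 11.1 in Ad-hHIF2 and 22.2, 25.1 and 22.5 in Ad-hHIF1. Every Ad-hHIF2 value was under the lowest of the other groups, a 2.34-fold difference from Ad-GFP (log2 -1.23, standard error 0.0867, adjusted p = 2.84e-05). Its log2 fold change was -0.97 with library totals, and -0.55 and -0.90 on the TPM scales (adjusted p = 0.159 and 0.110). Srxn1 (chr2:152105516-152111376), sulfiredoxin, which repairs over-oxidised peroxiredoxins, was at 16.4, 16.3 and 21.0 CPM in Ad-GFP and 10.1, 8.33 and 7.14 in Ad-hHIF2, with 21.3, 17.7 and 21.1 in Ad-hHIF1. It was 2.08-fold lower in Ad-hHIF2 than in Ad-GFP (log2 -1.06, standard error 0.151, adjusted p = 0.00121), and Ad-GFP and Ad-hHIF1 overlapped. Its log2 fold change was -0.05 and -0.13 on the TPM scales (adjusted p = 0.901 and 0.844), and it was under 2-fold without Ad-GFP replicate 4 (-0.93) or Ad-hHIF2 replicate 4 (-0.95).

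Txn1, cytosolic thioredoxin, was less certain. Ad-GFP replicates 1, 3 and 4 gave 72.1, 82.3 and 46.8 CPM, Ad-hHIF2 46.1, 49.1 and 42.1 and Ad-hHIF1 65.5, 61.1 and 66.9. The lowest Ad-GFP sample lay within the Ad-hHIF2 range, and the log2 fold change of -0.55 (standard error 0.176) passed narrowly (adjusted p = 0.0462). Without Ad-GFP replicate 4 it was -0.74 (adjusted p = 0.000907). Leaving out Ad-GFP replicate 1 or 3, or Ad-hHIF2 replicate 1, 3 or 4, gave adjusted p of 0.123, 0.152, 0.117, 0.0818 and 0.149.

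**Figure D3:**
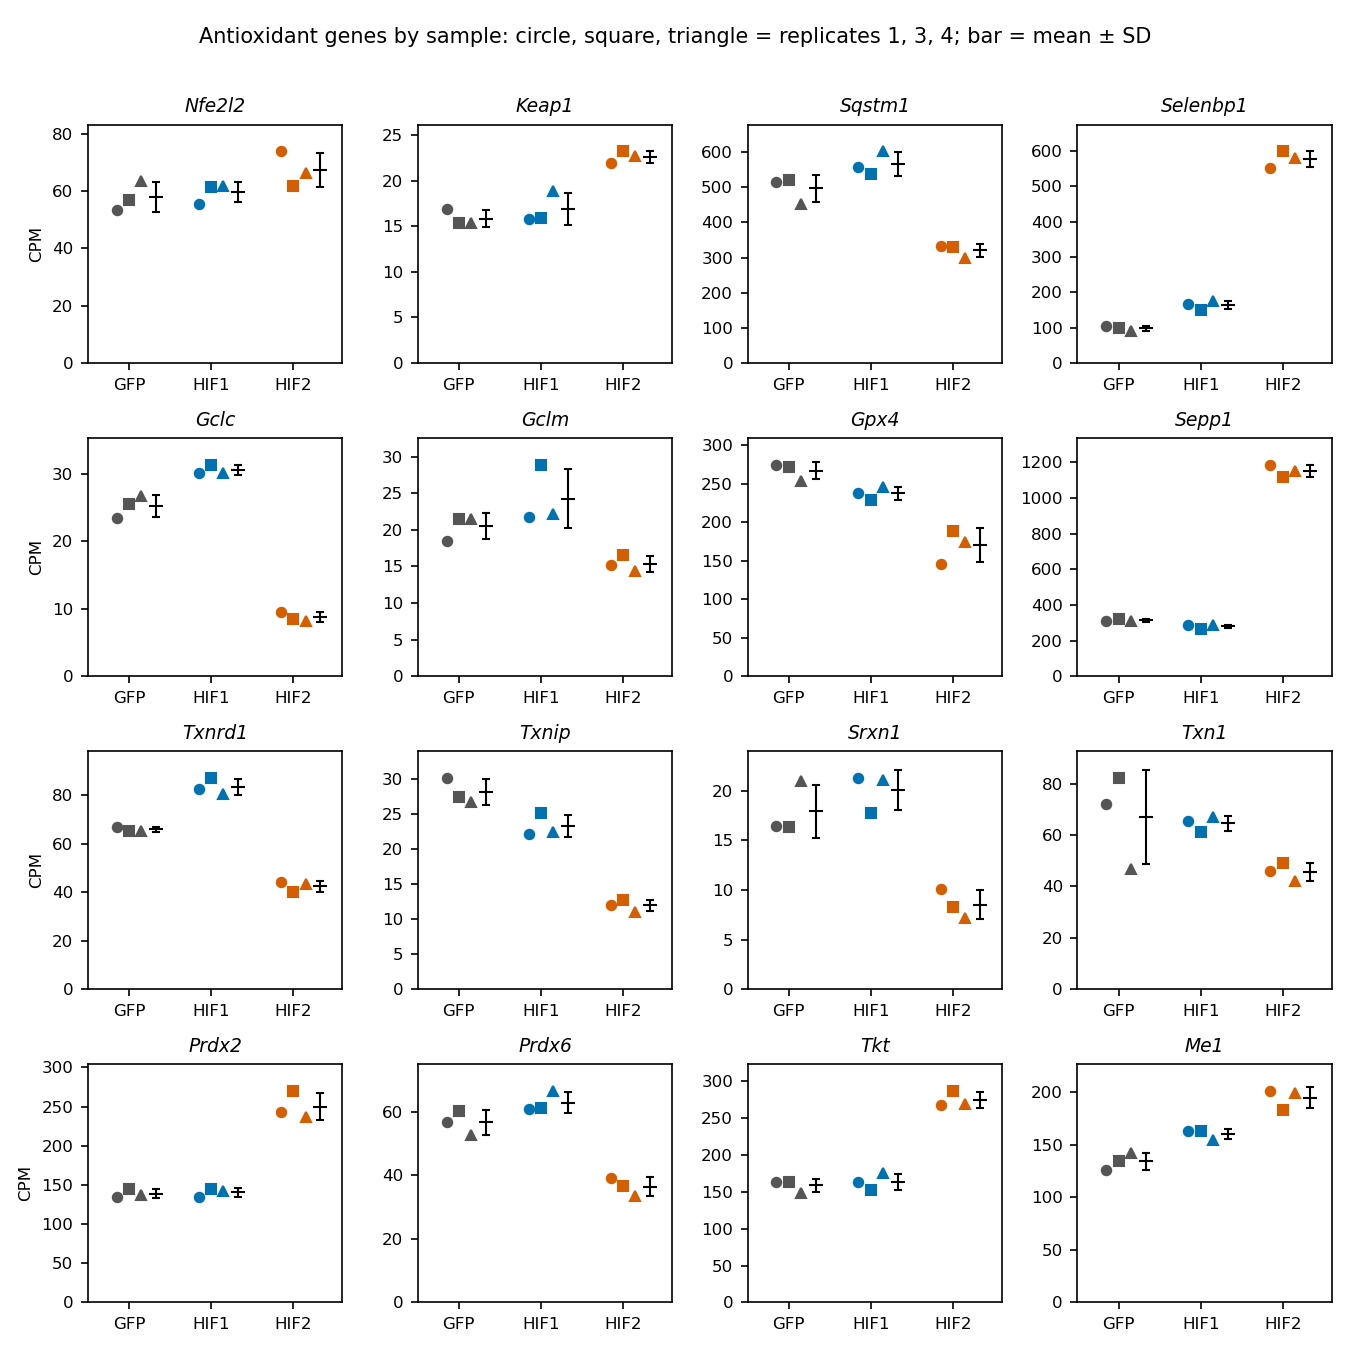
CPM in each of the 9 samples for 16 members (circle, replicate 1; square, replicate 3; triangle, replicate 4), with mean ± SD beside the 3 points of each group and axes that start at 0. Gclc, Txnip and Srxn1 are lowest in Ad-hHIF2, Selenbp1 and Sepp1 highest, and the Ad-GFP points of Txn1 run from 46.8 to 82.3.

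The peroxiredoxins, which clear peroxide with electrons from thioredoxin or glutathione, had 1 of 6 members higher and 1 lower (16.7% each, close to the 15.9% and 13.6% of all genes). Prdx2 was at 135, 145 and 137 CPM in Ad-GFP, 134, 145 and 142 in Ad-hHIF1 and 243, 270.1 and 237 in Ad-hHIF2. It rose 1.80-fold in Ad-hHIF2 without overlap (log2 0.85, standard error 0.0821, adjusted p = 0.000153). Prdx6, the member that uses glutathione, was at 56.9, 60.3 and 52.7 CPM in Ad-GFP, 39.3, 36.7 and 33.4 in Ad-hHIF2 and 60.9, 61.2 and 66.6 in Ad-hHIF1. It fell by 0.63 on the log2 scale (standard error 0.0812, adjusted p = 0.000714).

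The other four peroxiredoxins did not pass. Prdx1, Prdx3, Prdx4 and Prdx5 had log2 fold changes of -0.28, -0.23, -0.11 and -0.12. Prdx1 had, like Txn1, its lowest Ad-GFP value in replicate 4 (188, 183 and 117 CPM in replicates 1, 3 and 4), and without that library its log2 fold change was -0.46 (adjusted p = 0.00784).

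Of the enzymes that act on superoxide and hydrogen peroxide directly, Cat, catalase, was 1.21-fold higher in Ad-hHIF2, at 80.6 to 86.7 CPM against 64.8 to 76.8 in Ad-GFP (log2 0.28, standard error 0.0872, adjusted p = 0.0408). That call passed in 1 of the 6 fits that left out a sample, and its adjusted p was 0.129, 0.142, 0.0914, 0.0781 and 0.0869 without Ad-GFP replicate 1 or 3 or Ad-hHIF2 replicate 1, 3 or 4. Over the 10 alternatives it passed in 8 (adjusted p up to 0.198) and was lost on both TPM scales. The superoxide dismutases Sod1 (cytosolic) and Sod2 (mitochondrial) did not pass, at log2 0.06 (adjusted p = 0.640) and -0.23 (adjusted p = 0.0907).

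Among the members grouped under NADPH supply, Tkt and Me1 rose. Tkt, transketolase of the non-oxidative pentose phosphate pathway, was at 163, 164 and 149 CPM in Ad-GFP, 163, 153 and 175 in Ad-hHIF1 and 268, 287 and 269.6 in Ad-hHIF2. Ad-hHIF2 stood apart by 1.74-fold over Ad-GFP (log2 0.80, standard error 0.0781, adjusted p = 0.000165). Me1, cytosolic malic enzyme, was at 126, 134 and 142 CPM in Ad-GFP, 163, 163 and 154 in Ad-hHIF1 and 201, 183 and 199 in Ad-hHIF2, a 1.45-fold rise in Ad-hHIF2 (log2 0.54, standard error 0.0801, adjusted p = 0.00158).

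The enzymes of the oxidative branch, which make NADPH, did not follow Tkt. G6pdx, glucose-6-phosphate dehydrogenase, was at 21.1 to 23.2 CPM in Ad-GFP and 23.7 to 25.9 in Ad-hHIF2 and did not pass (log2 0.19, adjusted p = 0.0920), though it did without Ad-GFP replicate 4 (adjusted p = 0.0459). Pgd, which catalyses the next NADPH-making step, was lower, at 22.6, 18.5 and 16.9 CPM in Ad-hHIF2 and 30.6, 26.1 and 22.5 in Ad-GFP, with 28.6, 29.7 and 33.2 in Ad-hHIF1 (Ad-hHIF2 over Ad-GFP log2 -0.45, standard error 0.134, adjusted p = 0.0353), although its sign turned on the TPM scales (0.05 on both). The Ad-hHIF2 and Ad-GFP values of Pgd overlapped, and the call was lost without Ad-GFP replicate 1 (adjusted p = 0.119), Ad-GFP replicate 3 (0.0811), Ad-hHIF2 replicate 3 (0.117) or Ad-hHIF2 replicate 4 (0.127). Taldo1, transaldolase, did not pass (log2 -0.21, adjusted p = 0.114).

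In Ad-hHIF1 organoids no member passed against Ad-GFP. None of 15233 genes (0%) did in edgeR's test, while 1308 had an unadjusted p below 0.05, among them 6 members that were higher and 1 that was lower. By sample, 10 members had every Ad-hHIF1 value above every Ad-GFP value (28.6%, against 8.34% of all genes) and 5 had every value below (14.3%, against 9.01%). The members above were Sqstm1, Selenbp1, Gclc, Gclm, Gss, Gsr, Txnrd1, Prdx6, Sod1 and Me1, and those below Mgst1, Gpx1, Gpx4, Sepp1 and Txnip. The log2 fold changes of all 35 ran from -0.37 to 0.73.

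The largest of these was Selenbp1, 1.66-fold above Ad-GFP (log2 0.73, standard error 0.0911, unadjusted p = 4.38e-05, adjusted p = 0.161). Its adjusted p ranged from 2.40e-13 to 0.678 over 10 alternatives, and it passed in 4 of them. DESeq2 called 4 members higher (Selenbp1, Txnrd1, Sod1 and Me1) and limma-voom 1 (Selenbp1). The share of all genes that passed is given here for edgeR only, so these counts cannot be set against a share of their own test. In edgeR, Txnrd1 had a log2 fold change of 0.34 (adjusted p = 0.486), Gclc 0.28 (0.491), Sod1 0.37 (0.486) and Me1 0.25 (0.501).

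The HIFs were compared with each other directly in a fit of all 9 samples. Relative to Ad-hHIF1, 7 of the 35 members were higher in Ad-hHIF2 and 13 lower, which is 20.0% and 37.1% where 13.7% and 12.0% of 15556 genes were. With library totals the counts were 6 and 7, on log2(TPM + 1) 3 and 1 and on log2(TPM + 0.1) 6 and 1, where Gclc was the lower member on both TPM scales. The shares of all genes on those scales are not given. Past 2-fold were Sepp1 and Selenbp1, higher (2.42% of all genes), and Gclc and Srxn1, lower (3.70%). The same Ad-hHIF2 libraries enter this contrast and the one with Ad-GFP, so that the results are not independent. The measured rise over Ad-GFP also differed, at 388-fold for Epas1 in Ad-hHIF2 and 1.41-fold for Hif1a in Ad-hHIF1. Differences between these groups are thus not differences at equal HIF level, and the part of the level was not tested.

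Gclc in Ad-hHIF2 was 3.49-fold below its Ad-hHIF1 level (log2 -1.80, standard error 0.0849, adjusted p = 3.80e-07), and it passed in all 10 alternatives, TPM scales included. Gclm fell by 0.66 on the log2 scale (adjusted p = 0.00300) and Gss, at 21.3, 21.4 and 22.0 CPM in Ad-hHIF1, 15.4, 18.3 and 16.6 in Ad-hHIF2 and 20.6, 19.1 and 17.6 in Ad-GFP, fell by 0.36 (adjusted p = 0.0133). The Gss call was lost without Ad-hHIF2 replicate 1 (adjusted p = 0.0724) or replicate 4 (0.0536).

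Apart from these 3 genes, 10 members were lower and 7 higher in Ad-hHIF2. On the lower side Srxn1 was at log2 -1.23 (adjusted p = 0.000207), Txnrd1 at -0.97 (4.62e-06), Txnip at -0.96 (2.98e-05), Sqstm1 at -0.82 (9.41e-05), Prdx6 at -0.79 (8.46e-05), Pgd at -0.66 (0.00486) and Gpx4 at -0.48 (0.00447). On the higher side were Sepp1 at 2.04 (5.99e-08), Selenbp1 at 1.82 (4.29e-07), Gpx8 at 0.97 (0.00650), Prdx2 at 0.83 (3.59e-05), Tkt at 0.75 (8.62e-05), Keap1 at 0.42 (0.00641) and Me1 at 0.28 (0.0205). Txn1 was at -0.49 and did not pass (adjusted p = 0.0524), but it did without Ad-GFP replicate 3 (0.0342) or 4 (0.00230), or blocked on replicate number (0.0468). Over the 10 alternatives, the block included, Txn1 passed in 7, with adjusted p from 9.23e-05 to 0.706.

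Both dismutases passed in this contrast. Sod1 was at 87.1, 92.2 and 78.7 CPM in Ad-GFP, 104, 117 and 112 in Ad-hHIF1 and 86.7, 96.3 and 85.1 in Ad-hHIF2, with Ad-hHIF1 above both of the others (HIF2 over HIF1 log2 -0.31, adjusted p = 0.0227). Sod2 was at 19.6, 19.2 and 20.2, at 19.8, 20.6 and 21.9 and at 16.4, 15.3 and 18.5 CPM in the same order of groups (log2 -0.32, adjusted p = 0.0220). Gpx1 was at 79.7, 91.1 and 89.9 CPM in Ad-hHIF1, between the other groups (log2 -0.25, adjusted p = 0.0317, and 0.0596 when blocked on replicate number). The Sod1 call was lost without Ad-hHIF2 replicate 1 or 4 or Ad-hHIF1 replicate 3 or 4 (adjusted p up to 0.0978), and that of Sod2 without Ad-hHIF2 replicate 1 or 3 or Ad-hHIF1 replicate 4 (up to 0.0873). Gpx1 lost its call without any of the Ad-hHIF2 samples or Ad-hHIF1 replicate 3 or 4 (up to 0.120), and Me1 without Ad-hHIF2 replicate 1 or 4 or Ad-hHIF1 replicate 1 or 4 (up to 0.0657).

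Other genes of these pathways were taken from 4 lists. Of 28 tested regulators and targets of NRF2 that are not members, 6 rose and 10 fell in Ad-hHIF2 against Ad-GFP (21.4% and 35.7%, where 15.9% and 13.6% of all genes did), with a median log2 fold change of -0.01, the same as over all genes. With library totals, or on either TPM scale, 1 of the 28 fell, and of the other 3 lists, which had 4 lower genes each, at most 1 did. On both TPM scales the higher genes were 1 in place of 2 in the glutathione and thioredoxin list, 1 in place of 5 among the selenoproteins and 2 in place of 5 in the NADPH list. Hmox1, heme oxygenase, which is repressed by BACH1 and induced by NRF2, had the largest fall of the list. It was at 342, 337 and 313 CPM in Ad-GFP, 90.9, 79.9 and 77.7 in Ad-hHIF2 and 497, 461 and 531 in Ad-hHIF1.

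Hmox1 thus separated the groups without overlap. It was 3.98-fold lower in Ad-hHIF2 than in Ad-GFP (log2 -1.99, standard error 0.0872, adjusted p = 1.66e-06) and 6.00-fold below Ad-hHIF1 (log2 -2.58, adjusted p = 6.40e-08). Its level in Ad-hHIF1 did not pass against Ad-GFP (log2 0.59, adjusted p = 0.207, and 1.25e-11 to 0.678 over the alternatives). Ephx1, microsomal epoxide hydrolase, rose 5.70-fold in Ad-hHIF2 from 15.7 to 19.7 CPM in Ad-GFP to 91.7 to 106 (adjusted p = 1.26e-06), Gsta1, a glutathione transferase whose reads may be shared with near-identical family members, 3.11-fold from low levels (adjusted p = 0.00388) and Ugdh, UDP-glucose dehydrogenase, 2.31-fold (adjusted p = 3.23e-05).

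The list of other glutathione and thioredoxin genes had 24 tested, of which 2 were higher and 4 lower (8.33% and 16.7%, against 15.9% and 13.6% of all genes, median log2 -0.14). Sesn2, sestrin 2, a stress-induced regulator, rose 2.44-fold (adjusted p = 1.51e-05), and Glrx3, a glutaredoxin of iron-sulfur delivery, fell by 0.58 on the log2 scale (adjusted p = 0.000775). Mgst3 and Hagh were at log2 -0.38 and -0.37 (adjusted p = 0.0327 and 0.0108), with the sign turned on the TPM scales (0.05 and 0.06 for Mgst3, 0.03 and 0.02 for Hagh). Of the 6 fits that left out a sample, Mgst3 passed in 2 (adjusted p up to 0.108) and Hagh in 5 (up to 0.0528).

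Of 20 other selenoproteins and factors of selenocysteine insertion, 5 were higher and 4 lower (25.0% and 20.0%, against 15.9% and 13.6% of all genes, median log2 0.03). Txnrd3 was 2.12-fold lower (adjusted p = 0.00357) and Sepw1 1.56-fold lower (adjusted p = 0.000551), and Selt and Sepn1, both of the endoplasmic reticulum, were 1.54-fold and 1.53-fold higher (adjusted p = 0.000372 and 0.00912). Of 16 other genes listed under NADPH supply, 5 were higher and 4 lower (31.2% and 25.0%, again against 15.9% and 13.6%, median log2 0.04). That list also holds genes that do not make NADPH themselves, such as Rpia and Mthfd1l, so the counts are no measure of NADPH supply. Mthfd1l, of mitochondrial folate metabolism, was 2.02-fold lower (adjusted p = 1.93e-05), Me2 and Aldh1l1 were 1.84-fold and 1.97-fold higher (adjusted p = 0.000123 and 0.0173), and Rpia fell by 0.64 on the log2 scale (adjusted p = 0.0261), a sign that turned on the TPM scales (0.01 on both). Rpia passed in 1 of the 6 fits that left out a sample (adjusted p up to 0.0986) and Aldh1l1 in 5 (up to 0.0558).

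**Figure D4:**
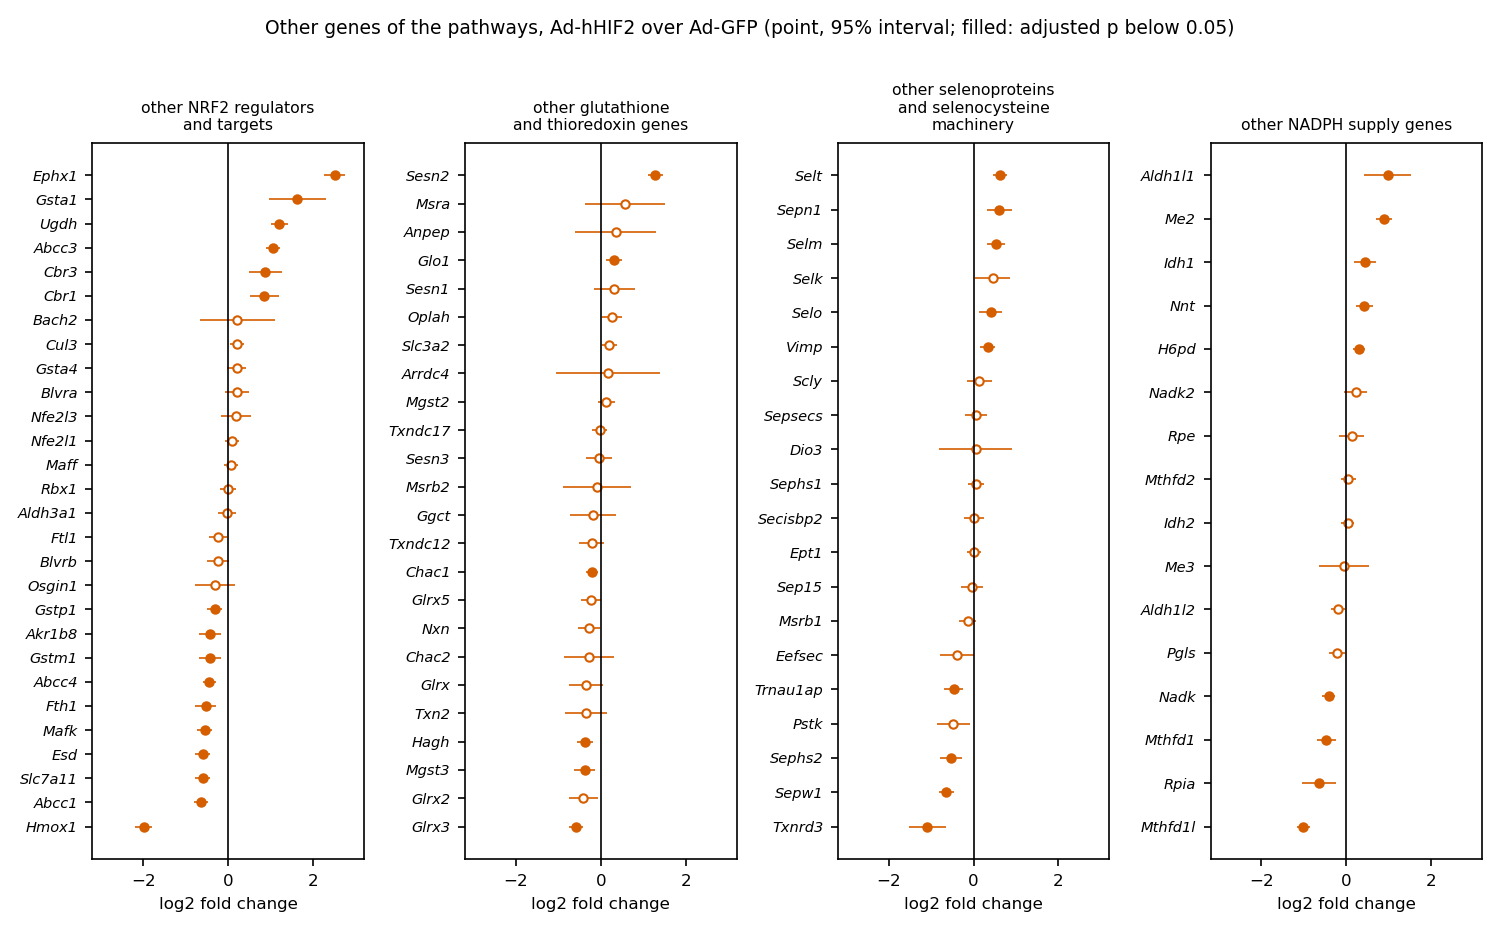
Log2 fold change of Ad-hHIF2 over Ad-GFP with its 95% interval for the tested genes of the 4 lists, filled where the adjusted p was below 0.05. Ephx1 at 2.51 and Hmox1 at -1.99 are the ends of the range.

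None of the genes of these lists passed in Ad-hHIF1 against Ad-GFP in edgeR's test on the TMM scale, where the smallest adjusted p in each list was 0.207, 0.509, 0.529 and 0.486 in the order above. Hmox1 passed there with DESeq2 (adjusted p = 1.25e-11) and without a count filter (7.67e-05). Between the HIFs, where 13.7% of all genes were higher and 12.0% lower, 5 of 28 NRF2 genes were higher and 12 lower (17.9% and 42.9%). Of 25 glutathione and thioredoxin genes 2 and 4 were (8% and 16.0%), of 20 selenoprotein genes 4 and 5 (20.0% and 25.0%) and of the 16 genes of the NADPH list 3 and 5 (18.8% and 31.2%).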

How the data were processed

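RNA of 9 cultures was sequenced. The authors filtered reads on quality and ran RSEM, whose expected counts were deposited without normalization. The deposited tables also hold TPM and effective gene lengths, both computed by RSEM. The RSEM version, genome build, annotation and strandedness are not given in the sources used here. Results of EBSeq, the test of the authors, were not used.

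Expected counts were rounded, filtered with edgeR's filterByExpr and normalized by TMM. The quasi-likelihood test of edgeR 4.0.16 (with limma 3.58.1 in R 4.3.3) was run over all genes with Benjamini-Hochberg adjustment, each HIF against Ad-GFP in its own 6 samples and the HIFs with each other in all 9. A gene passed at an adjusted p below 0.05, and 2-fold was the study's second threshold. CPM use TMM factors over all 9 samples, and levels between genes are CPM per kilobase of effective length. Standard errors were derived from the F statistic. Gene positions are those of GENCODE M21 (GRCm38) by Ensembl identifier, which matched 38 members. Expected counts of 17 members were not whole in some sample (tolerance 0.005). With 3 samples per group, an exact permutation test cannot go below 0.10. The script was tested on simulated data. Python 3.11.15 and matplotlib 3.10.9 were used for tables and figures.

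The members and lists were chosen with earlier results of these data known. Values in every sample were given for members with an adjusted p below 0.05 and a log2 fold change of at least 0.5 in size in Ad-hHIF2 against Ad-GFP, or with an adjusted p below 0.05 in another comparison, and for Nfe2l2, Keap1 and Bach1. Up to 4 genes of each list with the largest changes among those passing, and Hmox1, were named. Alternatives changed the scaling (library totals or median-ratio size factors), the filter (none, or 10 counts required of each sample), the model (limma-voom, DESeq2 1.42.0, or limma with pseudocounts of 0.1 and 1 on TPM in log2), the samples (a joint fit of all 9, the 6 HIF samples alone, or each left out in turn) and added a replicate block. They were extended to the genes of the lists after the data were seen.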

Additional observations from a re-analysis of the deposited data

How the results depend on the processing

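Leaving out 1 sample at a time gave 6 to 11 members higher and 8 to 12 lower in Ad-hHIF2 against Ad-GFP, where 14 of the 19 calls held in all 6 fits, and 6 to 9 higher and 9 to 16 lower in Ad-hHIF2 against Ad-hHIF1, where 15 of 20 held in all 9. Against Ad-GFP, the members lower in Ad-hHIF2 were 3 with library totals and 0 on log2(TPM + 1) and log2(TPM + 0.1). Against Ad-hHIF1, they were 7 with library totals and 1 on either TPM scale, the members higher were 3 on log2(TPM + 1), and those past 2-fold were 2 on log2(TPM + 1) and 7 on log2(TPM + 0.1). The members higher in Ad-hHIF1 than in Ad-GFP were 4 with DESeq2 and 1 each without a count filter, with limma-voom and with all 9 samples in a single fit. No share of all genes is given beside these counts, which come from fits other than the main one. Among the named genes that passed in Ad-hHIF2 against Ad-GFP, the sign turned on log2(TPM + 1) and log2(TPM + 0.1) for Gpx1 (0.01 and 0.00), Pgd (0.05 and 0.05), Mgst3 (0.05 and 0.06), Hagh (0.03 and 0.02) and Rpia (0.01 and 0.01). It also turned for members that did not pass, among them Mgst1 (0.30 and 0.39), Gss (0.15 and 0.24), Prdx1 (0.16 and 0.18) and Mafg (0.22 and 0.36). The cause was not tested. With the replicate block 8 members were higher and 11 lower against Ad-GFP in Ad-hHIF2, 0 in Ad-hHIF1, and 7 higher and 13 lower between the HIFs, as without it. In that last contrast Gpx1 no longer passed with the block (adjusted p = 0.0596), while Txn1 did (0.0468). Deviations of same-numbered samples correlated at 0.075, 0.07 and 0.134 (Ad-hHIF2 and Ad-GFP) and at -0.194 to 0.097 in the other pairs of groups. Every Ad-hHIF2 and Ad-GFP sample correlated best with its own number, a weak hint from the data that the other pairs of groups did not give. For Ad-hHIF2 replicate 3 the margin was small, at 0.07 against 0.066 with Ad-GFP replicate 1. Samples of different number reached 0.206 (Ad-hHIF2 replicate 1 and Ad-hHIF1 replicate 4). The samples were not treated as paired, since the labels do not say what the numbers mark. Nqo1, Gpx2 and Ggt1 had too few counts to be tested.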
